A study of Homo sapiens with 16 samples.

Results

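The 8 genes described here direct where lymphocytes go and were followed across 3 lines of Jurkat cells, a long-established human T cell line from a leukemia. They are the chemokine receptors CXCR4, CCR4, CCR7, CXCR3 and CCR9, the lipid receptors S1PR1 and GPR183, and SELPLG, which encodes the selectin ligand PSGL-1. The genes were taken by symbol. All 8 were found among the 58295 genes of the annotation, and all 8 were among the 18073 genes with enough counts to be tested. Messenger RNA was measured by sequencing of polyadenylated RNA in 16 libraries of the JSL1 clone. The wild type (WT) was compared with a line labelled JSL1 HDAC7 E9-/-, in which exon 9 of HDAC7 was removed with CRISPR-Cas9 (dE9), and with a line labelled JSL1 HDAC7 E9+, edited to include that exon (iE9). HDAC7, one of the class IIa deacetylases, represses genes that MEF2 factors bind. Each line was grown in medium alone or with 20 ng/mL PMA, a diacylglycerol mimic that switches on protein kinase C, and all libraries are labelled 48 h, although the design text gives 0 h for unstimulated cells. There were 2 unstimulated and 2 PMA libraries of WT, and 3 and 3 of each edited line. The labels do not say whether an edited line is 1 clone or whether libraries came from separate cultures, so a p-value here reflects only how far these libraries spread, which may be technical.

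Chemokine receptors are G protein-coupled receptors that steer cells along gradients of small secreted proteins. CXCR4 binds CXCL12 and holds immature cells in bone marrow and thymus, CCR7 binds CCL19 and CCL21 and guides T cells into lymph nodes, CCR4 binds CCL17 and CCL22 and is used by skin-homing and type 2 helper cells, CXCR3 binds interferon-induced chemokines in inflamed tissue, and CCR9 binds CCL25 in thymus and gut. S1PR1 senses sphingosine 1-phosphate, which is high in blood and lymph, and lets T cells leave lymphoid organs; CD69 binds it and takes it off the surface. GPR183 (EBI2) senses oxysterols and positions cells at the edge of follicles. PSGL-1 carries sugars that bind selectins when a cell rolls along the vessel wall. This was bulk RNA, in which fewer cells that express a gene and less RNA per cell cannot be told apart.

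Total estimated counts were 14536537 to 21888896 per library. The level of the 5 HDAC7 transcripts holding exon 9 was set against the sum of these and the 5 that span its place without it. Their share was 46.6% to 47.5% in unstimulated WT, 0.8% to 7.4% in dE9 and 51.8% to 74.8% in iE9. With PMA the shares were 43.1% to 53.8%, 0.0% to 0.7% and 42.3% to 63.0%, so that iE9 overlapped WT, and iE9 below stands for the libraries so labelled. All 10 T cell markers examined reached 1 TPM in each of the 6 groups. The summed level of 5 B cell markers was 8.94 to 33.18 TPM in unstimulated WT and dE9 and 52.5 to 187.8 TPM in iE9, and 47.31 to 83.37, 14.79 to 203.08 and 304.07 to 539.35 TPM with PMA in WT, dE9 and iE9. CD79A carried that sum, while MS4A1 and PAX5 were at 0 in unstimulated WT. The summed level of 7 myeloid markers was at most 1.41 TPM unstimulated and 0.23 to 25.37 TPM with PMA. Of the other marker lists, HBA1 (erythroid) had group means of 2.25 to 5.35 TPM except in PMA-treated dE9 (31.9) and iE9 (17.2), PECAM1 (endothelial) of 11.3 to 22.5 TPM except in PMA-treated iE9 (55.7), and KLRD1 (natural killer) of at most 0.369 TPM except in unstimulated iE9 (5.77). In all, 3 libraries stood apart from their groups. Both iE9 libraries numbered 1 had mitochondrial shares of 9.17% (unstimulated) and 12.81% (PMA), against 3.0% to 6.39% in the others. The dE9 PMA library 1 lay at 28 on the first principal component, where the other dE9 PMA libraries lay at 75 and 88. Results that change without these libraries are given with and without them, and the part of the markers in any result was not tested.

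Among the 8 genes, CXCR4 and SELPLG were abundant in unstimulated cells and the others were low. Levels are given as TPM, transcript abundance per unit of length with an equal sum for every library, so that genes can be set side by side. Mean CXCR4 was 236 ± 10.6 TPM in unstimulated WT (SD, n = 2), 225 ± 39.8 in dE9 (n = 3) and 242 ± 127 in iE9 (n = 3). SELPLG followed at 52.3 ± 2.85, 43.8 ± 22.5 and 102 ± 52.7 TPM, and S1PR1 and CCR4 came next in each line. In unstimulated WT, libraries of CCR4 and CCR9, and of CCR9 and GPR183, overlapped, while the other neighbours in the order did not. Within each of these libraries CCR4 was above CCR9. In iE9 the ranges of CXCR4 and SELPLG overlapped between libraries, as did those of each neighbouring pair from S1PR1 downwards. Within each iE9 library CXCR4 was still above SELPLG, and from CCR4 downwards the order held, while S1PR1 and CCR4 changed places. In dE9 each neighbouring pair from S1PR1 down to GPR183 overlapped between libraries, although within each library S1PR1, CCR4, CCR9 and CXCR3 kept that order.

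With PMA the order changed. CCR4 was first and GPR183 second in each line by their means, at 54.9 ± 5.12 and 38.7 ± 14.2 TPM in WT, 54.6 ± 47.9 and 26.7 ± 15.8 in dE9, and 65.7 ± 8.61 and 26.0 ± 15.1 in iE9. CCR4 lay above GPR183 without overlap in WT and iE9, but in dE9 all neighbours in the order overlapped between libraries. Within each dE9 library SELPLG was above S1PR1, S1PR1 above CCR9, and CCR7 above CXCR3. In WT, GPR183 overlapped CXCR4, and in iE9 GPR183, SELPLG and CXCR4 could not be ordered beyond their spread. Summed over the 8 genes, the level was 284.3 to 301.5 TPM in unstimulated WT and 143.1 to 160.1 with PMA. The sum ran from 206.8 to 331.7 and from 77.0 to 203.4 TPM in dE9, and from 250.7 to 610.0 and from 118.8 to 211.7 TPM in iE9. The 2 treatments did not overlap in any line.

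**Figure D1:**
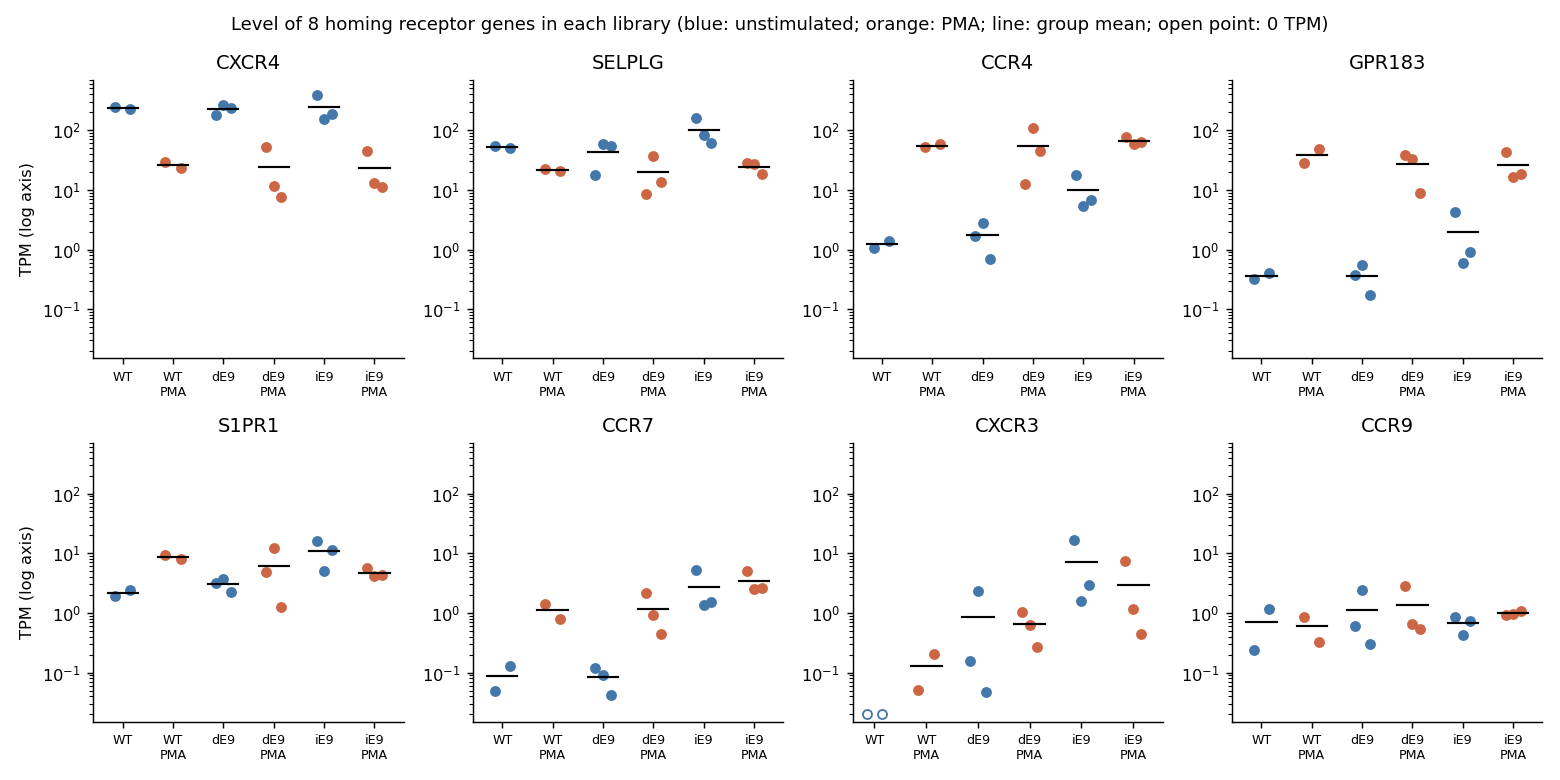
Level of each of the 8 genes in every library, in TPM on a log axis, by line and treatment, with points for libraries and bars for group means. CXCR4 is highest in all unstimulated groups, and CCR4 has the highest mean in all PMA groups.

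The make-up of the sum shifted in the same way. CXCR4 held 80.8% and 80.4% of the summed level in the unstimulated WT libraries and 20.6% and 14.6% with PMA. CCR4 went from 0.4% and 0.5% to 35.8% and 36.6%. In iE9 libraries 1 to 3, CXCR4 held 63.5%, 61.3% and 68.0% unstimulated, below each unstimulated WT and dE9 library, and SELPLG held 26.5%, 33.0% and 22.9%, above each of them. The dE9 PMA library 1 differed from the other dE9 PMA libraries, with 42.6% CXCR4 and 10.2% CCR4 against 5.8% and 9.7% CXCR4 and 52.5% and 57.9% CCR4.

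**Figure D2:**
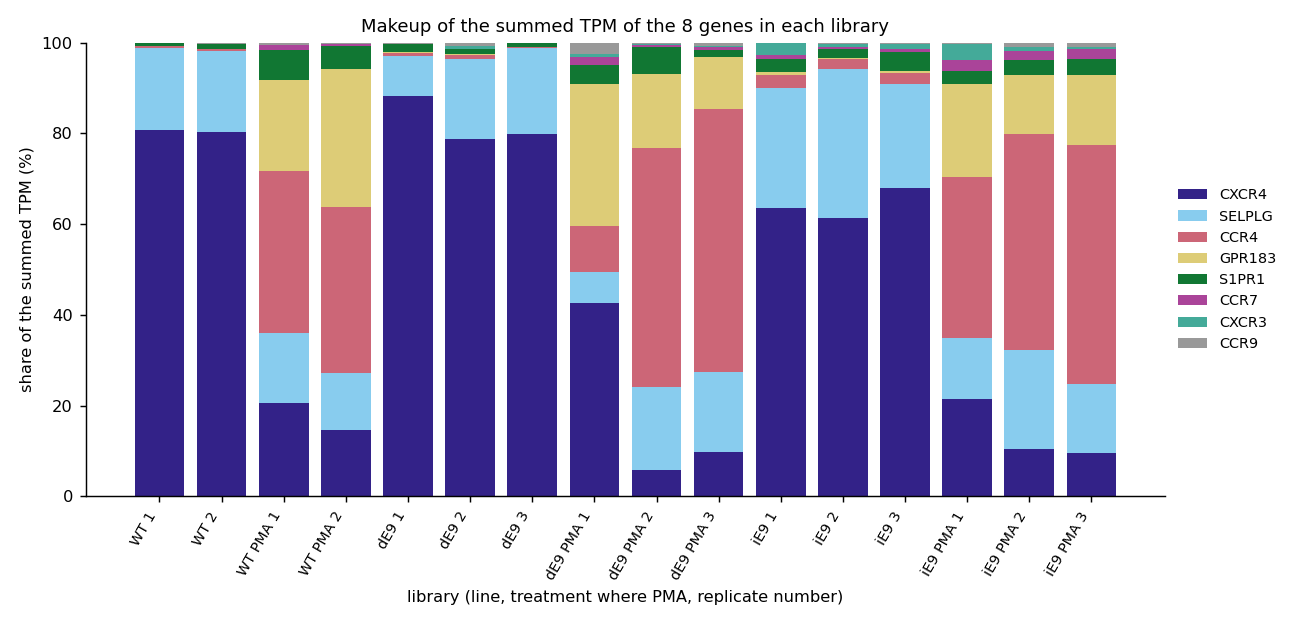
Share of the summed TPM of the 8 genes held by each gene, in percent, 1 stacked bar per library. CXCR4 fills 61.3% to 88.3% of each unstimulated bar and 5.8% to 42.6% of each PMA bar, where CCR4 and GPR183 take larger shares.

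The bases before the start of CCR4, CXCR4 and GPR183 are shown because these 3 genes changed with PMA in all 3 lines. The windows come from RefSeq (GRCh38.p14) and end before both the RefSeq start and the GENCODE 29 start of the gene. They read 5′ to 3′ on the gene's strand, and capitals mark matches on either strand to the GC box GGGCGG or the TATA box TATAAA.
CXCR4, chr2:136118166-136118399, minus strand: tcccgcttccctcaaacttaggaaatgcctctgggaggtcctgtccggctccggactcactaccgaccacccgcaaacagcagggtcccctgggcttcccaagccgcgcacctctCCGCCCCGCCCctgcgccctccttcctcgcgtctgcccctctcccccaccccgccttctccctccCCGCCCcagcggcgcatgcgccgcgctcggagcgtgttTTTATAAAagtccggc
CCR4, chr3:32951394-32951573, plus strand: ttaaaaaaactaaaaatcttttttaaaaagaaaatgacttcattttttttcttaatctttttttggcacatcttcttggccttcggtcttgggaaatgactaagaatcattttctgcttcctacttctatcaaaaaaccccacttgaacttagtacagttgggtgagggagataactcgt
GPR183, chr13:99307406-99307649, minus strand: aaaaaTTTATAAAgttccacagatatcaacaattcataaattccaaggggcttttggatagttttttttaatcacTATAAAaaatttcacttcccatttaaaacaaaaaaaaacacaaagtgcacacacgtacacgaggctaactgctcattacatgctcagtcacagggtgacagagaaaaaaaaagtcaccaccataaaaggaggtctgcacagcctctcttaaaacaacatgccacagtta
The window of CXCR4 was rich in G and C, at 68.0% over the 250 bases before the RefSeq start, against 39.6% for CCR4 and 34.4% for GPR183. It held 3 GC-box matches and 2 overlapping matches to the TATA letters, the pair on opposite strands. CCR4 held neither motif, and GPR183 held 3 TATA matches, of which 2 overlap. Over 35116 RefSeq promoters of the same length, 42.6% held a GC box and 10.7% the TATA letters. On either strand, the AP-1 letters TGANTCA were in 6.57% of them and in none of the 6 matched genes of the set, which were these 3 with CXCR3, CCR9 and S1PR1. CCR7 and SELPLG are named only. A match is a description of letters, not a bound site.

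In WT, PMA raised CCR4, CCR7 and GPR183 and lowered CXCR4. Of the 8 genes, 3 were higher, where 11.1% of all tested genes were, and 1 was lower, where 11.3% were. In dE9 the counts were likewise 3 higher, against 17.1% of all tested genes, and 1 lower, against 16.5%. In iE9, 2 were higher (CCR4 and GPR183), against 12.6% of all tested genes, and 2 lower (CXCR4 and SELPLG), against 14.4%. A gene was called changed at an adjusted p under 0.05 from edgeR's quasi-likelihood test, adjusted over all tested genes, and differences between conditions are log2 ratios of normalised counts with their standard error (SE). The median log2 difference was 1.69 in WT over 7 of the genes (CXCR3, with 0 counts unstimulated and 5 with PMA summed over the WT libraries, was under a floor of 3 counts per library in both groups), 0.69 in dE9 and -0.48 in iE9 over 8, against 0.03, 0.06 and -0.01 over all tested genes.

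CXCR4 (ENSG00000121966; GRCh38 chr2:136114349-136118165, minus strand) fell in all 3 lines. Its levels were 244 and 229 TPM in the unstimulated WT libraries and 29.4 and 23.4 with PMA. In dE9 libraries 1 to 3 they were 183, 262 and 232 TPM unstimulated and 52.2, 11.8 and 7.48 with PMA, and in iE9 387, 154 and 184 and then 45.6, 12.9 and 11.3. Treated and untreated libraries did not overlap in any line, and library 1 was the highest PMA library of both edited lines. The log2 difference was -3.27 ± 0.84 in WT (9.67-fold lower, adjusted p = 0.0127), -3.21 ± 0.68 in dE9 (9.29-fold lower, adjusted p = 0.00238) and -3.50 ± 0.69 in iE9 (11.3-fold lower, adjusted p = 0.00206). Without PMA library 1 the difference was -4.56 in dE9 and -4.50 in iE9. In WT the adjusted p was 0.0539 without unstimulated library 1, and 0.0788 and 0.113 without PMA library 1 and 2, with differences of -3.20, -3.46 and -3.06.

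CCR4 (ENSG00000183813; chr3:32951574-32956349, plus strand) rose in all 3 lines. It was at 1.07 and 1.38 TPM in unstimulated WT and at 51.3 and 58.5 with PMA. In dE9 it was at 1.71, 2.75 and 0.697 TPM and then at 12.5, 107 and 44.5, and in iE9 at 17.8, 5.33 and 6.86 TPM and then at 75.4, 59.1 and 62.6. Treated libraries lay above untreated ones in each line, and the dE9 PMA libraries spread most. The log2 rise was 5.37 ± 0.89 in WT (41.3-fold, adjusted p = 0.000967), 4.96 ± 0.70 in dE9 (31.2-fold, adjusted p = 0.00013) and 2.58 ± 0.62 in iE9 (5.97-fold, adjusted p = 0.00647). It was 4.0 in dE9 without PMA library 2 and 3.23 in iE9 without unstimulated library 1.

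CCR7 (ENSG00000126353; chr17:40553769-40565472, minus strand) was scarce in WT and dE9 and was raised by PMA there. Unstimulated WT held 1 count in each library (0.049 and 0.127 TPM) and 1.39 and 0.802 TPM with PMA. The dE9 libraries were at 0.117, 0.09 and 0.042 TPM and then at 2.17, 0.936 and 0.435. The iE9 libraries were at 5.33, 1.36 and 1.54 TPM unstimulated and at 5.06, 2.48 and 2.59 with PMA, which overlap. In WT the ratio of summed counts was 27.1 (95% counting interval 7.16 to 229), which leaves out the spread between libraries. The edgeR test gave a log2 rise of 4.52 ± 1.06 there (23-fold, adjusted p = 0.00792). In dE9 the log2 rise was 3.74 ± 0.77 (13.4-fold, adjusted p = 0.00191), or 2.99 without PMA library 1. In iE9 the difference was 0.21 ± 0.59 (95% interval -1.05 to 1.48, adjusted p = 0.825). In WT the adjusted p was 0.0719 and 0.0696 without unstimulated library 1 or 2, and 0.0746 with limma voom.

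CXCR3 and CCR9 did not pass the test in any line. CXCR3 (ENSG00000186810; chrX:71615916-71618517, minus strand) had 0 counts in both unstimulated WT libraries and 0.052 and 0.203 TPM with PMA. In dE9 it was at 0.156, 2.35 and 0.048 TPM and then at 1.04, 0.615 and 0.266, and in iE9 at 16.4, 1.56 and 2.99 TPM and then at 7.31, 1.15 and 0.436. Library 1 of iE9 was far above its group in both treatments. The adjusted p was 0.441 in WT, 0.777 in dE9 and 0.489 in iE9. CCR9 (ENSG00000173585; chr3:45886504-45903177, plus strand) lay between 0.236 and 2.83 TPM in all 16 libraries. Its log2 differences were 0.98 ± 1.05, 0.30 ± 0.78 and 0.43 ± 0.80 in WT, dE9 and iE9 (adjusted p = 0.544, 0.802 and 0.735).

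GPR183 (ENSG00000169508; chr13:99294530-99307405, minus strand) rose in all 3 lines. Unstimulated WT was at 0.319 and 0.404 TPM (5 and 7 counts) and PMA-treated WT at 28.7 and 48.7. In dE9 it went from 0.369, 0.542 and 0.175 TPM to 38.4, 33.1 and 8.74, and in iE9 from 4.30, 0.589 and 0.923 TPM to 43.3, 16.3 and 18.3. No treated library overlapped an untreated one of its line. The log2 rise was 6.59 ± 1.05 in WT (96.2-fold, adjusted p = 0.000778), 6.23 ± 0.85 in dE9 (75.2-fold, adjusted p = 9.77e-05) and 3.58 ± 0.71 in iE9 (11.9-fold, adjusted p = 0.00199). In iE9 the rise was 4.90 when unstimulated library 1 was left out, 2.93 when PMA library 1 was, and 4.27 when both were.

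S1PR1 (ENSG00000170989; chr1:101236865-101243713, plus strand) did not pass the test in any line. It was at 1.94 and 2.43 TPM in unstimulated WT and at 9.42 and 7.84 with PMA. In dE9 it was at 3.21, 3.67 and 2.24 TPM and then at 4.90, 12.1 and 1.24. In iE9 it was at 16.2, 4.99 and 11.5 TPM and then at 5.67, 4.13 and 4.31. The WT groups were apart, and the same-numbered dE9 pairs differed in direction. All 3 same-numbered iE9 pairs were lower with PMA, although the iE9 groups overlapped in TPM. In the normalised counts tested by edgeR the iE9 groups did not overlap. There, iE9 libraries 1 to 3 were at 24.9, 10.2 and 21.6 unstimulated and at 8.58, 5.36 and 7.01 with PMA. The log2 differences were 1.69 ± 0.68 in WT (adjusted p = 0.0857), 1.07 ± 0.54 in dE9 (adjusted p = 0.147) and -1.44 ± 0.54 in iE9 (adjusted p = 0.0631). With the replicate number as a block within dE9 and iE9, where same-numbered libraries deviated together, the rise in WT passed (1.69 ± 0.48, adjusted p = 0.0183) and so did the fall in iE9 (-1.37 ± 0.39, adjusted p = 0.0151). The dE9 difference was 0.23 without PMA library 2 (adjusted p = 0.771). Without dE9 PMA library 3, the WT, dE9 and iE9 differences passed at an adjusted p of 0.0113, 0.00723 and 0.0063, and without dE9 PMA library 2 those of WT and iE9 at 0.0367 and 0.0326. With DESeq2 the WT and iE9 differences passed at 0.0363 and 0.0326. They also passed in edgeR with only the groups compared, where the other lines do not enter the spread. The values were then 1.71 ± 0.24 in WT (adjusted p = 0.000263) and -1.42 ± 0.36 in iE9 (adjusted p = 0.0201). That setting called 52.7% of all genes tested in WT and 27.6% in iE9. Without iE9 unstimulated library 2 the iE9 difference was -1.74 (adjusted p = 0.0492).

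SELPLG (ENSG00000110876; chr12:108622277-108633959, minus strand) was lower with PMA in each same-numbered pair of all 3 lines, and passed the test in iE9 only. It was at 162, 82.7 and 61.7 TPM in the unstimulated iE9 libraries and at 28.4, 27.1 and 18.1 with PMA. In WT it was at 54.3 and 50.3 TPM and then at 22.0 and 20.4, and in dE9 at 17.9, 58.4 and 55.2 TPM and then at 8.47, 37.5 and 13.7. The treatments were apart in WT and iE9 and overlapped in dE9, where library 1 was low in both. The log2 difference was -2.11 ± 0.53 in iE9 (4.33-fold lower, adjusted p = 0.00874), -1.41 ± 0.64 in WT (adjusted p = 0.126) and -1.16 ± 0.52 in dE9 (adjusted p = 0.0987). The lines did not differ in this response by the test, at -0.70 ± 0.81 for iE9 minus WT and -0.95 ± 0.72 for iE9 minus dE9. With only the WT groups compared in edgeR, the fall in WT passed (-1.39 ± 0.12, adjusted p = 1.15e-05), where 52.7% of all genes tested were called. With the block the differences in WT (-1.41 ± 0.29, adjusted p = 0.00323) and dE9 (-1.29 ± 0.24, adjusted p = 0.00127) passed too. The counts of the 8 genes changed then became 4 higher and 2 lower in WT, 3 and 2 in dE9, and 2 and 3 in iE9. Over all tested genes the block also raised the share called in either direction, from 22.3% to 38.8% in WT, from 33.5% to 47.2% in dE9 and from 27.1% to 42.0% in iE9. The iE9 adjusted p was 0.0588 without both libraries numbered 1. The dE9 difference passed without unstimulated library 1 (-1.49, adjusted p = 0.0396) or PMA library 2 (-2.06, adjusted p = 0.00677).

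**Figure D3:**
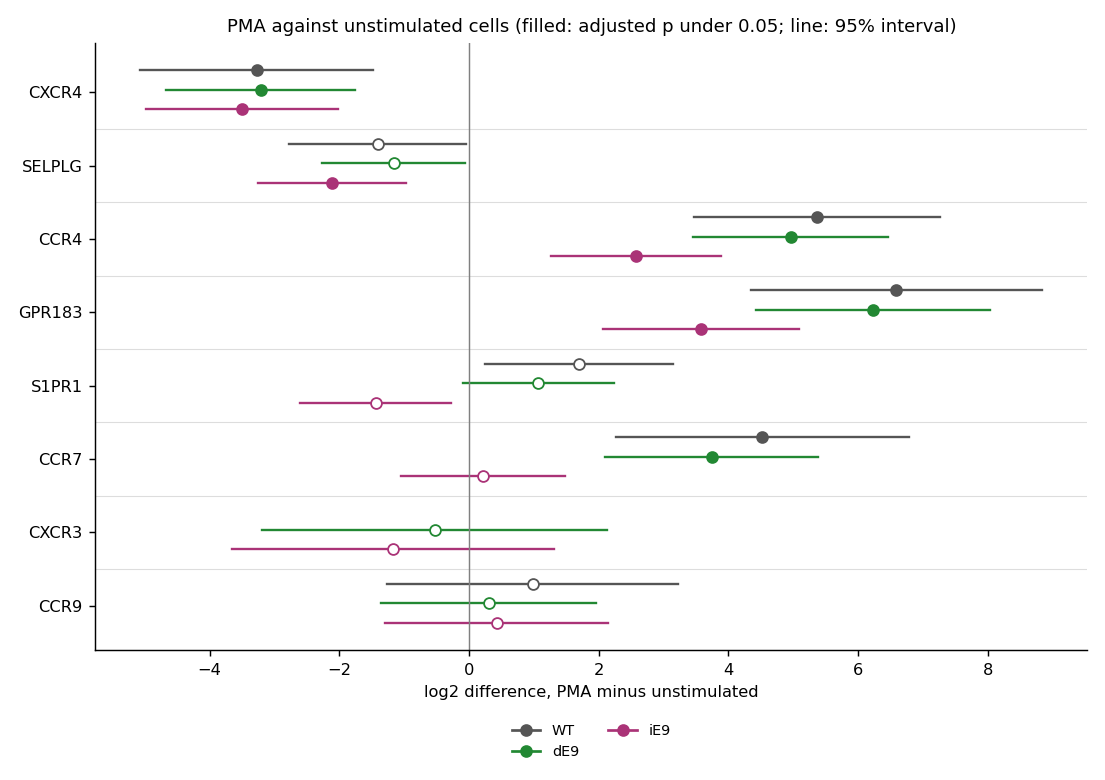
Log2 difference between PMA-treated and unstimulated cells for each gene in each line, with bars for the 95% interval and filled points for an adjusted p under 0.05. CCR4 and GPR183 lie above 0 and CXCR4 below 0 in all 3 lines; CXCR3 in WT is left out, since unstimulated WT had 0 counts.

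Between the lines, unstimulated iE9 held more CCR7 than the other lines. Of the 8 genes, 1 differed between iE9 and dE9, where 1.72% of all tested genes did, and 1 between iE9 and WT, where 1.38% did. That gene was CCR7 in both, and both comparisons use the same iE9 libraries. Its log2 difference from dE9 was 4.98 ± 0.78 (31.6-fold higher, 95% interval 3.32 to 6.65, adjusted p = 0.00541), or 4.14 without unstimulated iE9 library 1 (adjusted p = 0.0181). Against WT the ratio of counts was 70.2 (95% counting interval 19.2 to 583). The edgeR test gave a log2 difference of 5.92 ± 1.03 from WT (60.4-fold, adjusted p = 0.012). In limma voom neither passed (adjusted p = 0.052 and 0.121), and against WT the adjusted p was 0.196 and 0.155 without unstimulated WT library 1 or 2. Without unstimulated iE9 library 1, where CCR7 was at 5.33 TPM against 1.36 and 1.54 in the others, it passed against WT too (adjusted p = 0.0329).

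CCR4, S1PR1, GPR183 and SELPLG were also higher in every unstimulated iE9 library than in every unstimulated dE9 or WT library. None of them passed the test. The margin was narrow for GPR183 (0.589 against 0.542 TPM) and SELPLG (61.7 against 58.4 TPM). How many of all tested genes separate in this way was not counted, so this only describes these genes. CCR4 differed by 2.56 ± 0.65 from dE9 (adjusted p = 0.0623) and by 3.00 ± 0.79 from WT (adjusted p = 0.0813) on the log2 scale. S1PR1 differed by 1.81 ± 0.55 (adjusted p = 0.118) and 2.06 ± 0.65 (adjusted p = 0.144). GPR183 differed by 2.46 ± 0.84 and 2.39 ± 0.99 (adjusted p = 0.168 and 0.271), or by 1.13 and 1.05 without unstimulated iE9 library 1, and SELPLG from dE9 by 1.18 ± 0.52 (adjusted p = 0.289). Without that library CCR4 differed by 1.90 and 2.34 (adjusted p = 0.266 and 0.237). With DESeq2, CCR4 and S1PR1 passed against dE9 (adjusted p = 0.0103 and 0.0211) and against WT (adjusted p = 0.00693 and 0.0203), where that tool called 4.42% and 4.35% of all genes. In the edgeR fit, which pools the spread over all groups, CCR4 passed in both comparisons without dE9 PMA library 1 (adjusted p = 0.013 and 0.0182) or 2 (0.0256 and 0.0357), and S1PR1 without dE9 PMA library 3 (0.0153 and 0.0207). Library 1 was the highest unstimulated iE9 library for all 8 genes. Without both iE9 libraries numbered 1 and dE9 PMA library 1, CCR4 differed from WT by 2.34 (adjusted p = 0.0453). CXCR3 was at least 44.4-fold higher in iE9 than in WT, taking 3 counts per library as the floor for WT. The edgeR test gave an adjusted p of 0.0905, or 0.0443 without unstimulated dE9 library 2. The adjusted p was 0.0474 with the replicate number as a block over all lines, and 0.000849 with DESeq2. Of the 425 counts of CXCR3 in iE9, 336 were in library 1, and without that library the bound was 14.3-fold. Against dE9, 2 of 3 iE9 libraries lay above the group (2.90 ± 1.24, adjusted p = 0.281), with a difference of 1.40 without iE9 library 1 and 5.98 without dE9 library 2. CXCR4 (0.14) and CCR9 (-0.66) did not pass against dE9, and their libraries overlapped.

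With PMA, none of the 8 genes passed between iE9 and dE9, where 2.61% of all tested genes did. At an unadjusted p under 0.05 there was 1 of the 8 (CCR7, 1.46 ± 0.61, adjusted p = 0.213), and 3450 of all 18073 tested genes. None passed between iE9 and WT, where 1.12% did. There, 2 of the 8 were at an unadjusted p under 0.05 (CCR7, 1.61 ± 0.71, adjusted p = 0.326, and CXCR3, adjusted p = 0.261), and 2562 of all tested genes. In both comparisons all 3 iE9 libraries were above the other group for CCR7, whose mean was 3.38 TPM in iE9, 1.18 in dE9 and 1.10 in WT. Without dE9 PMA library 1 the CCR7 difference from dE9 was 2.21 (adjusted p = 0.0672). DESeq2 and limma voom called 0 of the 8 in both comparisons. Without the 3 libraries that stand apart, CXCR4 was lower in iE9 than in WT (-1.21 ± 0.24, adjusted p = 0.0217), where 4.21% of all tested genes then passed. That fit was not planned, and it drops the iE9 PMA library with the most CXCR4 (45.6 TPM, against 12.9 and 11.3). CCR4, at 59.1 to 75.4 TPM in iE9, lay above both WT libraries and within the dE9 range in TPM. In the normalised counts tested by edgeR it overlapped WT (0.21 ± 0.65, adjusted p = 0.91). S1PR1, at 4.13 to 5.67 TPM in iE9, lay below both WT libraries.

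Between dE9 and WT, 0 of the 8 genes passed unstimulated and 0 with PMA, and of all tested genes 0% passed in either. At an unadjusted p under 0.05 there were 1 and 0 of the 8, and 560 and 459 of all tested genes. DESeq2 and limma voom called 0 of the 8 genes, and over all genes DESeq2 called 20 and 9, and limma voom 2 and 0. With PMA these counts depended on dE9 PMA library 1, without which 174 genes (0.971%) passed, and 314 (1.79%) passed without the 3 libraries that stand apart. Without those 3 libraries CXCR4 was lower in dE9 than in WT (-1.42 ± 0.25, adjusted p = 0.0106). The dE9 PMA library dropped there held the most CXCR4 of its group (52.2 TPM, against 11.8 and 7.48). The gene at an unadjusted p under 0.05 was CXCR3 in unstimulated cells, at least 6.3-fold higher in dE9 against the floor. That bound rests on library 2, which held 61 of the 65 counts; the other libraries, at 3 and 1, were at or under the floor. CCR7 counts had a ratio of 2.03 (95% counting interval 0.387 to 20.1), an interval too wide to show that the lines were alike.

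**Figure D4:**
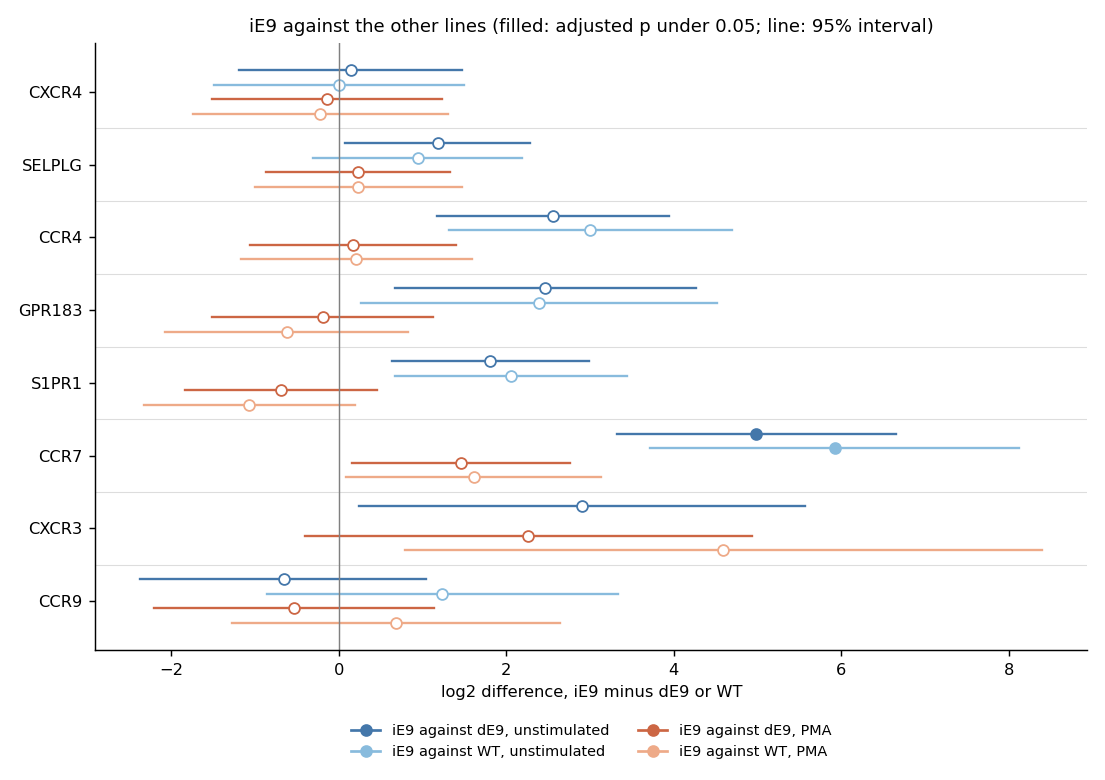
Log2 difference between lines for each gene within each treatment, with bars for the 95% interval and filled points for an adjusted p under 0.05. CCR7 in unstimulated cells, at 4.98 against dE9, is the gene that passes; CXCR3 of unstimulated iE9 against WT is left out, since WT had 0 counts.

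Whether the response to PMA itself differed between lines was tested as a difference of differences. None of the 8 genes passed for iE9 minus WT, iE9 minus dE9 or dE9 minus WT, and of all tested genes 0%, 0% and 0% passed. At an unadjusted p under 0.05 there were 4, 4 and 0 of the 8 genes, and 1022, 1239 and 282 of all tested genes. DESeq2 and limma voom called 0 of the 8 genes in each; over all genes DESeq2 called 53, 116 and 1, and limma voom 0. Without dE9 PMA library 1, edgeR passed 0, 461 and 22 genes, and without the 3 libraries that stand apart 31, 722 and 134, with 0 of the 8 genes among the latter. The 4 genes were CCR7, S1PR1, CCR4 and GPR183 in both comparisons, which share the iE9 libraries. For iE9 minus WT the CCR7 response differed by -4.31 ± 1.23 on the log2 scale (adjusted p = 0.492; unstimulated WT held 1 count per library) and that of S1PR1 was -3.13 ± 0.87 (adjusted p = 0.492). For iE9 minus dE9 they were -3.53 ± 0.97 (adjusted p = 0.327) and -2.51 ± 0.77 (adjusted p = 0.463). For CCR4 the differences were -2.79 ± 0.99 and -2.38 ± 0.86 (adjusted p = 0.74 and 0.568), and for GPR183 -3.01 ± 1.2 and -2.66 ± 1.05 (adjusted p = 0.796 and 0.613). All 8 of these values are smaller responses, or for S1PR1 a response of the other sign, in the iE9 libraries. Without unstimulated iE9 library 1 the values for iE9 minus WT and iE9 minus dE9 were nearer 0, at -3.47 and -2.69 for CCR7, -2.13 and -1.72 for CCR4, and -1.68 and -1.33 for GPR183. For iE9 minus dE9, CCR4 was at -1.37 and S1PR1 at -1.61 without dE9 PMA library 2. With the block within dE9 and iE9, CCR7 and GPR183 passed for iE9 minus WT (-4.16 ± 0.71 and -2.78 ± 0.50, adjusted p = 0.0378 and 0.04) and for iE9 minus dE9 (-3.27 ± 0.56 and -2.38 ± 0.45, adjusted p = 0.0347 and 0.0432). With that block 0.57% of all tested genes passed for iE9 minus WT and 0.852% for iE9 minus dE9. For CCR4 the blocked values were -2.63 (adjusted p = 0.137) and -1.98 (adjusted p = 0.138), and for S1PR1 -3.06 (adjusted p = 0.0652) and -2.03 (adjusted p = 0.12). Without the block, iE9 minus dE9 passed for CCR4 when dE9 PMA library 1 was left out (-2.84, adjusted p = 0.0362) and for S1PR1 when dE9 PMA library 3 was (-2.99, adjusted p = 0.0462).

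By transcript, most of these genes came mainly from 1 form, while CCR9 had no stable form. CCR4 and GPR183 have 1 annotated transcript each. CCR7-201 held 100% of CCR7 except in unstimulated WT (0.0%) and dE9 (66.67%), which held 1 to 3 counts per library. CXCR4-201 held 96.87% to 99.06% of CXCR4 as group means, and SELPLG-203 held 95.27% to 99.17% of SELPLG. S1PR1-201 held 61.91% to 93.46%, with S1PR1-203 at 4.57% to 29.31%. CXCR3 went from 0.18% ± 0.32 of the form CXCR3-201 in unstimulated iE9 to 49.88% ± 47.29 with PMA (n = 3 each, exact permutation test, p = 0.1, which is the smallest that 3 against 3 allows). The iE9 PMA libraries 1 to 3 held only 136, 22 and 10 counts of CXCR3. For CCR9, the shares of CCR9-202 and CCR9-203 each ran from 0% to 100% between libraries in both iE9 groups. In dE9, CCR9-203 went from 0.0% to 78.67% ± 36.94 with PMA (n = 3 each, exact permutation test, p = 0.1). Adjusted over the 19 shares compared, the lowest p was 0.633 by that exact permutation test.

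Other genes of the homing pathways were taken from lists, each counted over its tested members. Their counts stand against the 11.1% higher and 11.3% lower of all tested genes in WT, 17.1% and 16.5% in dE9, and 12.6% and 14.4% in iE9, and their medians against 0.03, 0.06 and -0.01. Of 14 other chemokine receptors, 5 were higher and 0 lower with PMA in WT, 3 and 0 in dE9, and 4 and 0 in iE9, with median log2 differences of 1.80, 1.62 and 0.97. The WT median covers 13 of them, since 1 was at or under the floor of 3 counts per library in both groups. Genes with 0 counts in a whole group (2 in WT, 1 in dE9) entered at a bound set by that floor. Over all 14 as fitted, the medians were 2.48, 1.63 and 0.97. The medians over all tested genes used no floor. CCR2, the CCL2 receptor, rose in each line, from 0.738 to 44 CPM (counts scaled to library size) in WT (5.87 ± 1.19, adjusted p = 0.0033), by 3.90 ± 0.86 in dE9 (adjusted p = 0.00295) and by 3.84 ± 0.84 in iE9 (adjusted p = 0.00366). CCR1, a receptor of CCL3 and CCL5, rose in each line as well, by 4.31 ± 1.10, 2.57 ± 0.77 and 2.52 ± 0.71 (adjusted p = 0.0126, 0.0176 and 0.0158). The fractalkine receptor CX3CR1 rose in iE9 from 0.195 to 1.24 CPM (adjusted p = 0.00811). Unstimulated, iE9 held more of the atypical receptor CCRL2 than dE9 (0.341 against 5.89 CPM in iE9, 4.05 ± 0.57, adjusted p = 0.00316) and than WT (4.37 ± 0.71, adjusted p = 0.00822). With PMA, CCR8 was lower in iE9 than in WT (0.175 against 11.1 CPM, adjusted p = 0.0425). Of 23 chemokine ligands 4 were tested, with 1 higher and 1 lower in each line. The higher one was the neutrophil chemokine CXCL8 in WT (0.0335 to 1.49 CPM, adjusted p = 0.0113) and dE9 (0.0361 to 0.706 CPM, adjusted p = 0.00759), and CXCL16 in iE9 (0.579 to 2.74 CPM, adjusted p = 0.0443). MIF, a cytokine that also binds CXCR4, was the lower one, from 930 to 343 CPM in WT (-1.44 ± 0.38, adjusted p = 0.0152), by -1.33 ± 0.31 in dE9 (adjusted p = 0.00455) and by -1.87 ± 0.32 in iE9 (adjusted p = 0.000708).

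Around S1PR1, 11 genes of the sphingosine 1-phosphate pathway were tested, of which 2 were higher and 1 lower with PMA in WT, 3 and 2 in dE9, and 2 and 2 in iE9 (medians 0.34, 0.08 and 0.17). CD69, which opposes S1PR1 at the surface, went from 11.8 to 401 CPM in WT (5.09 ± 0.41, adjusted p = 5.98e-06), from 6.4 to 249 in dE9 (5.28 ± 0.34, adjusted p = 4.05e-07) and from 26.4 to 607 in iE9 (4.53 ± 0.32, adjusted p = 9.15e-07). The receptor S1PR3 fell in each line (-3.10 ± 0.69, -1.92 ± 0.53 and -2.27 ± 0.54, adjusted p = 0.00603, 0.0123 and 0.0065). CD69 was also higher in iE9 than in dE9, by 2.04 ± 0.30 unstimulated (adjusted p = 0.00394) and 1.28 ± 0.28 with PMA (adjusted p = 0.0291). Of 4 enzymes that make or break the GPR183 ligand, 2 were tested and 0 passed in any line. CH25H, which makes its precursor, was at 0 TPM in all but the iE9 PMA group, where the mean was 0.089, and CYP7B1 was at 0 TPM in all groups.

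Around SELPLG, 16 selectins and enzymes of selectin ligand sugars were tested. With PMA 6 were higher and 1 lower in WT, 7 and 2 in dE9, and 5 and 1 in iE9, with medians of 0.42, 0.29 and 0.12. The sulfotransferase genes TPST1 and TPST2, whose products sulfate tyrosines such as those of PSGL-1, were among the higher ones. TPST1 rose by 3.13 ± 0.70 in WT, 2.85 ± 0.55 in dE9 and 3.74 ± 0.57 in iE9 (adjusted p = 0.00578, 0.00121 and 0.000315). TPST2 rose by 1.62 ± 0.29, 1.0 ± 0.23 and 1.64 ± 0.23 (adjusted p = 0.0015, 0.00417 and 0.000183).

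Of 12 transcription factors linked to homing, 5 were higher and 2 lower with PMA in WT, 7 and 2 in dE9, and 5 and 3 in iE9. The medians were 0.32 over 11 of them in WT, 1.11 in dE9 and 0.66 in iE9. In WT 1 factor was left out as at or under the floor in both groups, and the median over all 12 as fitted was 0.71. GATA3, the factor of type 2 helper cells, rose by 2.92 ± 0.26, 2.39 ± 0.21 and 1.97 ± 0.21 in WT, dE9 and iE9 (adjusted p = 1.3e-05, 3.95e-06 and 1.86e-05). KLF2, an activator of S1PR1, fell in iE9 from 29.9 to 2.14 CPM (-3.79 ± 0.74, adjusted p = 0.00178), and was at -2.02 ± 0.84 in WT and -1.79 ± 0.66 in dE9 (adjusted p = 0.0964 and 0.0502). TCF7, a factor of naive T cells, fell in WT, dE9 and iE9 (-2.19 ± 0.53, -2.44 ± 0.43 and -2.01 ± 0.44, adjusted p = 0.00902, 0.000707 and 0.00363), and unstimulated it was lower in iE9 than in dE9 (-2.34 ± 0.43, adjusted p = 0.0142). BACH2 was higher there (2.13 ± 0.31, adjusted p = 0.00378).

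Of 17 genes that couple or desensitise such receptors, 3 were higher and 1 lower with PMA in WT, 4 and 1 in dE9, and 4 and 0 in iE9, with medians of 0.13, 0.00 and 0.01, near those of all tested genes. RGS3, which speeds the turning off of G proteins, rose by 4.96 ± 0.73, 4.62 ± 0.57 and 3.49 ± 0.53 (adjusted p = 0.000442, 4.71e-05 and 0.000301). The arrestin ARRB1 rose by 1.48, 1.43 and 2.91 (adjusted p = 0.0119, 0.0023 and 3.45e-05), and unstimulated it was lower in iE9 than in dE9 (-2.14 ± 0.33, adjusted p = 0.00453). Of 19 genes of the migration machinery, 8, 9 and 9 were higher and 0 lower (medians 0.76, 0.84 and 0.65). Among these, PIK3R5, the adaptor of the PI3-kinase that G proteins activate, rose by 3.52 ± 0.52, 2.82 ± 0.41 and 1.63 ± 0.39 (adjusted p = 0.000463, 0.000152 and 0.00615), and the GTPase RAC2 by 1.52, 1.34 and 1.0 (adjusted p = 0.00114, 0.000278 and 0.00287). Of 6 tested genes that were HDAC7, MEF2A, MEF2D and the MEF2-driven nuclear receptors NR4A1, NR4A2 and NR4A3, 5 were higher and 0 lower in each line. NR4A1 did not pass (1.10, 0.82 and -1.26, adjusted p = 0.214, 0.225 and 0.0818). HDAC7 itself was higher in unstimulated iE9 than in dE9 (1.66 ± 0.22, adjusted p = 0.00224). Its level was also above WT in iE9, at 60.97 to 103.32 against 20.55 to 24.86 TPM unstimulated. With PMA it was 164.83 to 210.48 in iE9 against 107.21 to 115.89 TPM in WT, but by the edgeR test 0 of these 6 genes passed there. So the iE9 and WT libraries were apart in total HDAC7 TPM, besides the edit, and the part of that level in any result was not tested.

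As a description across the 16 libraries, which share the PMA contrast, the genes whose log2 CPM followed each gene most closely were listed by Pearson correlation. CXCR4 was followed by VKORC1 (r = 0.983), ENOSF1 (0.981) and THOC1 (0.98), and CCR4 by CD48 (0.979), STK10 (0.978) and KLHL6 (0.976). GPR183 was followed by ST6GAL1 (0.978), RNF215 (0.973) and BCL6 (0.972), and CCR7 by SLAMF7 (0.953), KCNMB1 (0.951) and IL12RB1 (0.941). The closest to SELPLG was MFSD3 (0.918), to CXCR3 STMN3 (0.903), to S1PR1 LIME1 (0.881) and to CCR9 BIN3 (0.764). CCR9, whose levels were near 1 TPM, had the weakest neighbour.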

How the data were processed

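Per the file headers, the authors deposited Salmon estimated counts per transcript, TPM values and effective lengths for each library, and 1 table of TPM per gene. The submitters' processing notes name Salmon, DESeq2 and the hg38 build; the sources used here do not give versions, strandedness or read filters. Expected counts were summed per gene with GENCODE 29 (205870 of 205870 transcripts matched) and rounded to whole numbers, and TPM values deposited by the authors were summed per gene. These sums equalled the deposited gene TPM table, of which 0 value columns were unused. Counting without strand can mix a gene with an antisense partner.

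Of 33304 genes with a count, filterByExpr kept 18073. They were tested with edgeR 4.0.16 (R 4.3.3; quasi-likelihood F test, two-sided, TMM factors, robust estimation off) with a coefficient for each of the groups over all 16 libraries. The spread was pooled over 6 groups, with 10 residual degrees of freedom and a common biological coefficient of variation of 31.8%. Adjusted p-values are Benjamini-Hochberg over all tested genes within a comparison. Total counts of 14536537 to 21888896 per library set the precision; replicate pairs differed by a chi-square of at least 7.55 per degree of freedom, so each library counted as 1 sample. A group with 0 counts was given a floor of 3 counts per library, and with 1 to 3 counts a 95% counting interval; neither covers more than counting error, because PCR duplicates are not separate molecules. The script was tested on simulated counts.

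Same-numbered libraries deviated together within dE9 (r = 0.297, 0.305 and 0.24) and iE9 (0.441, 0.226 and 0.19) but not clearly in WT (0.073) or between lines, so a block on the number within dE9 and iE9 was added after the data were seen. The fit without the 3 libraries that stand apart was not planned either. Further alternatives were limma voom (3.58.1), DESeq2 (1.42.0), other size factors, no filter, length-scaled counts, fewer groups, and each library left out. The genes and lists were chosen with earlier results of these data known. The rule for pathway genes named up to 4 called members per list and comparison with the smallest adjusted p; several of these are left out of the text for length. Some genes of the lists are counted but not reported here by name.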

Additional observations from a re-analysis of the deposited data

How the results depend on the processing

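Over 26 alternative settings, 16 of which left out 1 library, 9 of the 14 called differences of single genes were called in every setting, and 0 of the 14 changed sign. In all, 47 differences were followed over the settings. They were each PMA difference within a line, and those other differences with an unadjusted p under 0.05 in the main fit. Of these 47, 5 changed sign in a setting, and the cause was not tested. Changes of sign among the remaining differences, which are not in the 47, were not counted. CCR9 in WT was at -0.27 with length-scaled counts. CXCR3 in dE9 was at 0.28 with the replicate block within lines and 0.71 with limma voom, and ran from -1.07 (without unstimulated replicate 3) to 2.55 (without unstimulated replicate 2). CCR9 in dE9 was at -0.92 without the 3 libraries that stand apart and at -0.2 without unstimulated replicate 3, and ran from -0.93 (without PMA replicate 1) to 1.7 (without unstimulated replicate 2). CCR7 in iE9 was at -0.1, -0.04 and -0.24 without unstimulated replicate 2, unstimulated replicate 3 and PMA replicate 1, and at most 1.05, without unstimulated replicate 1. CXCR3 in iE9 ran from -3.06 (without PMA replicate 1) to 0.33 (without unstimulated replicate 1).

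Counts of the 8 genes called moved as follows. For PMA in WT, leaving out 1 library gave 2 (without unstimulated WT library 1) to 5 in place of 4. S1PR1 and SELPLG were also called in WT with no filter and with only the groups compared, where 13.2% and 52.7% of all genes tested were called. With no filter both were called in dE9 too, and S1PR1 in iE9 (18.3% and 15.9% of all genes). For unstimulated iE9 against dE9 the 1 became 3 with DESeq2, 6 with no filter and 0 with limma voom, where 4.42%, 3.96% and 1.06% of all genes tested were called, and 1 to 2 with a library left out. For unstimulated iE9 against WT the 1 became 4 with DESeq2, 6 with no filter, 2 with only the groups compared, 2 with the additive replicate block, 2 without the 3 libraries that stand apart, 0 with limma voom (4.35%, 3.66%, 2.02%, 1.62%, 2.93% and 0.797% of all genes), and 0 to 2 with a library left out. With PMA, the 0 of iE9 against dE9 became 1 with no filter (CXCR3, higher) and 1 with the additive replicate block (CCR7, 1.62 ± 0.38, adjusted p = 0.0433). The 0 of iE9 against WT became 1 with no filter (CXCR3, higher) and 1 without the 3 libraries (CXCR4, lower). For dE9 against WT the 0 became 1 with no filter unstimulated (CXCR3, higher), and 1 with PMA without the 3 libraries (CXCR4, lower). No filter called 3.49% to 5.41% of all genes between iE9 and the others with PMA and 0.396% between dE9 and WT unstimulated. For the difference in response, iE9 minus WT, the 0 became 4 with no filter, 1 with only the groups compared and 2 with the replicate block within lines. For iE9 minus dE9 it became 4 with no filter, 2 with that block, and 0 to 1 with a library left out; no filter called 0.877% and 1.44% of all genes in these. In TMM-scaled CPM, 1 of 24 directions of the PMA difference changed, CCR9 in WT, giving 15 higher in place of 14.

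Depth limits CXCR3, CCR7 and GPR183 most in unstimulated WT and dE9, where libraries held 0 to 11 counts of these genes except for 61 of CXCR3 in dE9 library 2. With 2 or 3 libraries per group, a call missed here does not show that a gene did not change. Replicates of WT did not pair by number, and the block within dE9 and iE9 changed no call other than those given.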
